A study of Homo sapiens with 6 samples.

Results

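The genes described here are 58 genes that lie along the end of the long arm of human chromosome 7, at about 140 to 159 Mb of GRCh38. They are a list of symbols among 35793 listed genes, chosen by position and by measured values, namely the normalized counts of these same knockout and wild-type libraries. The knockout against wild-type values of the members are therefore a description of what chose them, and no value below is a test of them. RNA was sequenced from cardiomyocytes grown from WTC11, an established human induced pluripotent stem cell line, and collected on day 15 of differentiation. The wild-type group was unedited WTC11 and the knockout group a WTC11 derivative with both copies of STK25, a serine/threonine kinase gene, disrupted by CRISPR/Cas9. Each group had 3 replicates that the labels call biological, with no treatment in either. The knockout is named as 1 cell line, so the edit cannot be told apart from any other difference between the lines.

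Genes of such a stretch share a position and not a pathway. This one holds a tandem cluster of zinc finger genes, many of which encode repressors with a KRAB domain that recruits silencing complexes. It also holds PRKAG2, a regulatory subunit of the energy sensor AMPK, SMARCD3, a subunit of the BAF chromatin remodelling complex that takes part in heart development, and BRAF, a kinase of the MAP kinase cascade. In heart muscle, PRKAG2 is known for inherited mutations that cause glycogen storage, thickening and conduction disease.

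The libraries held from 22443904 to 53224112 reads assigned to genes. STK25 itself was at 45.8% of the wild-type mean in the knockout, with 8874, 6774 and 8710 normalized counts in the wild type and 3906, 3434 and 3820 in the knockout, and it fell by 1.12 on the log2 scale (SE 0.19). Of 8 cardiomyocyte markers every one was detected, and their summed level was 588811 to 704048 normalized counts in wild-type libraries and 883204 to 948359 in knockout libraries. limma called 1 of these 8 lower, NKX2-5 (means of 21091 against 6444). Of the other cardiomyocyte means, MYH6 (142436 against 62131) and RYR2 (2573 against 2316) were also lower in the knockout. TNNT2 (236163 against 299188), TNNC1 (56303 against 124486), ACTN2 (48521 against 108138), MYH7 (93527 against 234627) and TTN (49224 against 76641) were higher. The 4 smooth muscle markers, all 4 called higher, summed to between 77993 and 87796 in the wild type and between 486822 and 536050 in the knockout, the 4 epicardial markers (1 called higher) to between 103 and 212 against 658 to 999, and the 5 hepatic endoderm markers (1 called lower) to between 1659 and 3003 against 1169 to 1248, with FOXA2 at 0 in every library. The 6 fibroblast markers (2 called higher) summed to 8656 to 17291 against 7530 to 15832 and the 5 neural markers (3 called higher) to 4536 to 7863 against 7076 to 16868. Such sums follow their most abundant genes. Of the fibroblast means, COL1A1 (10227 against 4792) and POSTN (119 against 31.3) were lower in the knockout. COL3A1 (760 against 4446), DCN (13.4 against 90.9), LUM (299 against 466) and PDGFRA (1286 against 2256) were higher. Of the neural means, NES was at 5838 against 9771, SOX2 at 1.91 against 138 and PAX6 at 4.22 against 53.4. TUBB3 was at 62.3 against 449 and STMN2 at 5.81 against 1.93. No marker was called among 6 endothelial (139 to 466 against 367 to 545) and 4 pluripotent ones (329 to 418 against 468 to 492), and CDH5 and TIE1 had at most 3 reads in any library. The part of these shifts in the values of the 7q genes was not tested. In bulk RNA, fewer cells of a type and less RNA per cell cannot be told apart.

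Nearly all members had lower values in the knockout, and the typical member was at 45.4% of its wild-type level (the median over members of the ratio of group means). A mean of at least 10 normalized counts, the filter for testing, was met by 55 of the 58. Their median log2 fold change was -1.14, with quartiles of -1.66 and -0.90, against 0.01 over all 15536 genes tested. Fold changes here are differences of mean log2(normalized count + 1) between knockout and wild type. The added 1 shrinks the change of low genes, but a single library at 0 can enlarge it beside the ratio of means. There were 25 members between 40% and 60% of the wild type, 20 under 40% and 10 over 60%. Over all tested genes 8.50% lay between 40% and 60%.

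Of the 55 tested members 27 had a Benjamini-Hochberg adjusted p under 0.05 in limma and were lower, where 6.79% of all tested genes were called lower. None was called higher with limma (5.97% of all tested genes), edgeR or DESeq2, and none was higher at an unadjusted p under 0.05 in any of these tools. Over all 15536 tested genes 4275 had such a p in limma, in either direction. Since the same contrast chose the members, nothing is read from these counts. In 42 of the 55 all 3 knockout libraries lay below all 3 wild-type libraries, which was the case for 17.2% of all tested genes. In 0 of the 55 did they all lie above, against 16.2%. With edgeR 24 members were called lower (6.42% of all genes) and with DESeq2 39 (10.7%). The number of limma calls moved with single libraries. Leaving out wild-type replicate 1 gave 6, leaving out wild-type replicate 3 gave 9 and leaving out knockout replicate 3 gave 13. Over all tested genes the share called lower was then 2.53%, 2.96% and 3.81%, so fewer calls were made in the whole table too. The median log2 fold change stayed between -1.32 and -1.05 in the 6 fits that each left out 1 library.

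**Figure D1:**
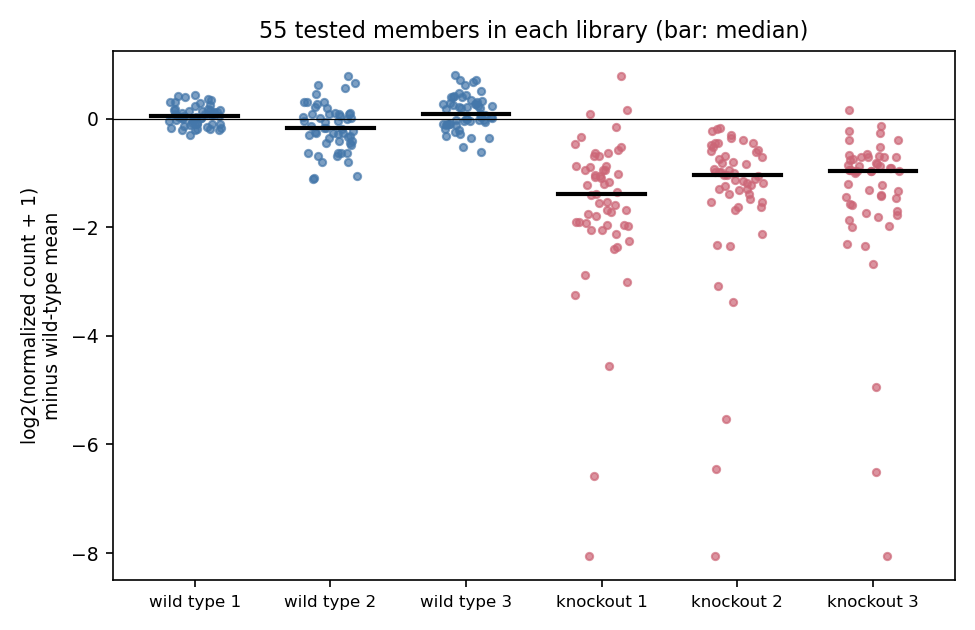
Values of the 55 tested members in each of the 6 libraries, as log2(normalized count + 1) minus the wild-type mean of the gene (vertical axis, log2 units), with 1 point per gene and a bar at the median. The medians are 0.04, -0.17 and 0.08 in the wild-type libraries and -1.38, -1.04 and -0.97 in the knockout libraries.

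The shift was present in each knockout library. Relative to the wild-type mean of each gene, the median member stood at -1.38, -1.04 and -0.97 log2 units in knockout replicates 1, 2 and 3. In wild-type replicates 1, 2 and 3 it stood at 0.04, -0.17 and 0.08, so no knockout library came near a wild-type one. The corresponding medians over all tested genes lay between -0.01 and 0.02 in every library. Together the 58 members took 0.363%, 0.295% and 0.376% of the reads of the wild-type libraries and 0.113%, 0.156% and 0.152% of those of the knockout libraries. Such shares also depend on the other genes of each library. The members' summed normalized counts fell less, from 122980, 115494 and 127643 in the wild type to 56264.8, 60710.3 and 63214.5 in the knockout.

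Wild-type replicate 2 and knockout replicate 1 stood apart from the others of their genotype. In wild-type replicate 2 the median member was 0.25 log2 units below the mean of the other wild-type libraries, and in knockout replicate 1 it was 0.12 below the mean of the other knockout libraries. The departures ran together: across the 55 genes, which are not independent replicates, Spearman's rho between them was 0.70, against 0.58 over all tested genes. SSBP1, which encodes a mitochondrial single-stranded DNA binding protein, was higher in both, and NCAPG2, a condensin subunit, was lower in both. Both departures ran weakly against transcript length, with rho of -0.26 and -0.26 over the members and -0.27 and -0.19 over all tested genes with a length. The part of transcript length in these departures was not tested. Without both libraries the members' median log2 fold change was -1.20, and 48 of 56 tested members were called lower by limma, where 14.9% of all tested genes were. That setting was added after the data were seen.

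**Figure D2:**
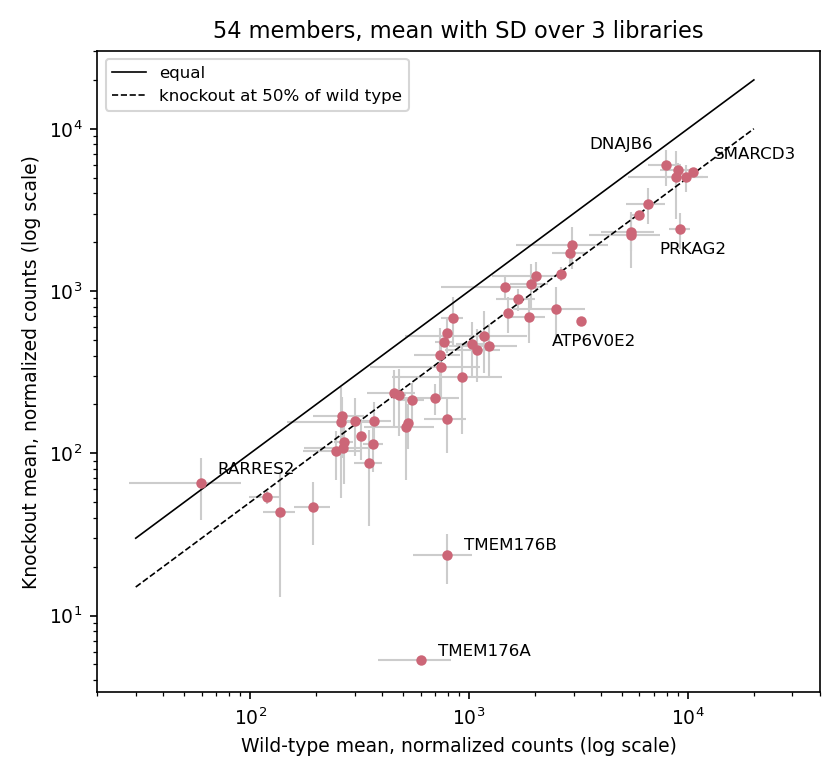
Mean normalized counts of 54 tested members in the wild type (horizontal, log scale) and the knockout (vertical, log scale), with SD over 3 libraries as bars. The solid line marks equal levels and the dashed line a knockout level of 50%. LRRC61 is left out because its knockout value is 0. TMEM176A and TMEM176B lie far below the dashed line and RARRES2 lies near the solid one.

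The role group listed as membrane proteins and transporters held the members with the lowest knockout values. It takes in LRRC61 and FAM131B, whose place in it rests on the list alone. Of 12 listed, 9 were tested, all 9 had negative log2 fold changes and 6 were called lower (6.79% of all tested genes). The same contrast chose the members, so no count in a role group is read as a result about that role. LRRC61, which encodes a leucine-rich repeat protein, had 263, 227 and 313 normalized counts in the wild-type libraries and 0 reads in every knockout library. Set against a floor of 3 reads per library, it was at least 81.7-fold lower. Its gene body (chromosome 7, 150322639 upward) overlaps ACTR3C and ZBED6CL, both with means under 10, and transcript-level assignment could have moved reads among the overlapping genes, so the exact 0 is uncertain.

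TMEM176A and TMEM176B encode related tetraspanning membrane proteins and lie head to head. TMEM176A had 501, 855 and 450 normalized counts in the wild type and 5.08, 5.57 and 5.33 in the knockout. This was 0.885% of the wild-type mean, with a log2 fold change of -6.52 (SE 0.41). TMEM176B had 716, 1056 and 603 in the wild type and 31.8, 15.6 and 24.0 in the knockout. This was 3.01% of the wild-type mean, with a log2 fold change of -5.01 (SE 0.39). No library of one group came near the other group for either gene. Their gene spans in GENCODE 29 overlap on opposite strands, and the sources used here do not say whether strand was used in counting. The RefSeq starts used below lie 405 bases apart and run away from each other, so transcripts from them do not overlap.

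The start regions of this pair are shown because both genes of the pair, alone among tested members with LRRC61, were below 5% of the wild type. The windows run from 250 bases before to 50 after an annotated start and come from RefSeq on GRCh38.p14. The TMEM176A window is chr7:150800519-150800818 on the plus strand and the TMEM176B window chr7:150800315-150800614 on the minus strand. Capitals mark the 96 bases that both windows share, each read on its own strand, and the starts lie 405 bases apart.
TMEM176A: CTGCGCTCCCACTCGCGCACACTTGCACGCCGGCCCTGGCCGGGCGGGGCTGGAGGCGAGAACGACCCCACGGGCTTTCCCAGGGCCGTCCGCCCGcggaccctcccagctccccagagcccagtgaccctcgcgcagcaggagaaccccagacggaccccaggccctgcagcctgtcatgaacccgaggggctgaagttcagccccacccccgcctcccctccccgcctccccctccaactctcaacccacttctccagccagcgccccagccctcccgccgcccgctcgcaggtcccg
TMEM176B: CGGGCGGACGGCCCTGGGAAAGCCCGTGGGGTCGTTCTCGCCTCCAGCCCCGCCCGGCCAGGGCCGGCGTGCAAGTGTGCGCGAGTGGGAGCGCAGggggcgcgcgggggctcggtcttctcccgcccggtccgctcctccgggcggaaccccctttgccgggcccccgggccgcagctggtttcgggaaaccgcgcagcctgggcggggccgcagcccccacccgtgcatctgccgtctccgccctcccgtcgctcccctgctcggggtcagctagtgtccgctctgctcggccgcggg
The dinucleotide CG, which reads the same on both strands, occurs 26 times in the TMEM176A window and 40 times in the TMEM176B window. Of all 35116 RefSeq windows of this length, 30.1% hold at least 26 and 7.61% at least 40. The median was 14 over all windows and 29 over the 85 windows of members. All windows come from 27305 symbols, more than the 15536 genes tested here, while 55 of the 58 members were tested. The sets are unlike, so the difference is not read as a trait of the members. Windows were matched by symbol for 50 of the 58 members.

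LRRC61 and RARRES2 are neighbours with different values. RARRES2 encodes chemerin, a secreted signal for immune cells and adipocytes, and was the only tested member with a positive log2 fold change. It had 48.3, 95.2 and 35.1 normalized counts in the wild type and 95.3, 41.2 and 61.3 in the knockout, so the groups overlapped. Its log2 fold change of 0.19 (SE 0.52) was not called and turned negative when libraries were scaled to equal totals (-0.09). It was also negative with wild-type replicate 3 left out (-0.12) or knockout replicate 1 left out (-0.11). Their windows, chr7:150323105-150323404 on the plus strand for LRRC61 and chr7:150341580-150341879 on the minus strand for RARRES2, are set side by side with each CG in capitals, as neighbours at opposite ends of the range of change.
LRRC61: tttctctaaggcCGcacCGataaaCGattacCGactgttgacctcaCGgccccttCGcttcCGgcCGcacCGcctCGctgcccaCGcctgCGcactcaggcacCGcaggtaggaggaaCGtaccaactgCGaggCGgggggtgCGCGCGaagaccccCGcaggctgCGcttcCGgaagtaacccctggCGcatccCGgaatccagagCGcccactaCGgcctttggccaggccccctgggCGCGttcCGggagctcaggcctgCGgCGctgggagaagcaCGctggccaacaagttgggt
RARRES2: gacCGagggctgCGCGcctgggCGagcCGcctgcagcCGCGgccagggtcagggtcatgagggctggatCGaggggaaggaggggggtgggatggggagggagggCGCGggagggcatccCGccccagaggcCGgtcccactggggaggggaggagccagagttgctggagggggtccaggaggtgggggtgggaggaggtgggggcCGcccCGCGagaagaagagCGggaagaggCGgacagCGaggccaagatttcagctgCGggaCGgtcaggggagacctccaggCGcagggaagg
The LRRC61 window holds 32 CG and the RARRES2 window 21, counts that 18.9% and 39.5% of all windows reach. That set is again not limited to tested genes. The median over the windows of members was 29.

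**Figure D3:**
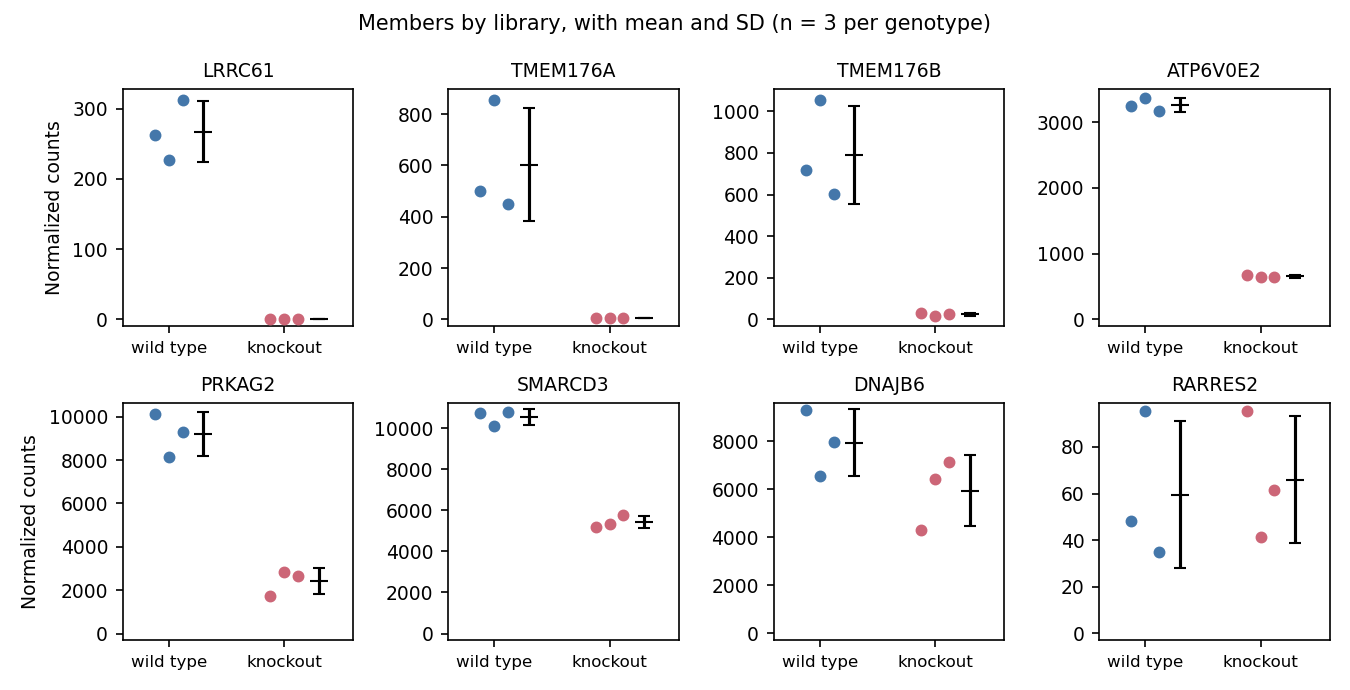
Normalized counts of 8 members in each library (points), with mean and SD beside them (n = 3 per genotype, linear axes that include 0). LRRC61, TMEM176A and TMEM176B are near or at 0 in all knockout libraries, ATP6V0E2, PRKAG2 and SMARCD3 are lower without overlap, and DNAJB6 and RARRES2 overlap between genotypes.

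ATP6V0E2 encodes a subunit of the proton-pumping vacuolar ATPase. It had 3246, 3370 and 3171 normalized counts in the wild type and 680, 639 and 642 in the knockout, and the means were 3262 ± 100.3 and 653 ± 23.1 (SD, n = 3). It fell by 2.32 on the log2 scale (SE 0.17), and the groups lay far apart beside their spread. LMBR1, a multispan membrane protein gene whose intron holds a limb enhancer of sonic hedgehog, had 2911, 1459 and 3101 against 460, 1010 and 869 (log2 fold change -1.67, SE 0.39). SLC37A3, a sugar phosphate exchanger family member and the first of the members along the chromosome, had 1388, 755 and 1559 against 285, 480 and 613 (-1.43, SE 0.38). SLC4A2, an anion exchanger, had 3078, 1587 and 4229 against 1297, 2358 and 2089. Its groups overlapped and it was not called (-0.56, SE 0.39). CNTNAP2, a neurexin family adhesion protein, and ESYT2, which tethers the endoplasmic reticulum to the plasma membrane, were not called either, at 69.6% and 46.3% of the wild-type mean.

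The 3 members below the filter were FAM131B, DPP6 and PTPRN2. FAM131B had 20.4 normalized counts in wild-type replicate 3, 20.3 in knockout replicate 1 and 0 in the other libraries. DPP6, an auxiliary subunit of potassium channels, had 1.51, 9.14 and 2.55 in the wild type and 8.90, 2.23 and 0 in the knockout. PTPRN2, a protein of secretory vesicles, had 16.6, 1.52 and 28.1 in the wild type and 0 in each knockout library. Its wild-type mean was 4.70-fold the knockout floor of 3 reads per library. The value in wild-type replicate 2 was itself under the floor of that library, 2.29, so no bound on the fold holds for it. Its relative PTPRN on chromosome 2, also below the filter, had 16.6, 13.7 and 17.2 in the wild type and 0 in each knockout library, at least 4.84-fold lower. Differences of FAM131B and DPP6 were not detectable at this depth.

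Of the 8 kinase and signalling members 5 were called lower (6.79% of all tested genes). In 7 the knockout lay below the wild type without overlap (17.2% of all tested genes), with RARRES2 the exception. PRKAG2 had 10138, 8141 and 9297 normalized counts in the wild type and 1736, 2850 and 2663 in the knockout. The means were 9192 ± 1002 and 2417 ± 596 (SD, n = 3; log2 fold change -1.95, SE 0.24). No knockout library came near a wild-type one. NOS3, the endothelial nitric oxide synthase, had 189, 161 and 233 against 43.2, 68.0 and 29.3 (-2.09, SE 0.41), and its transcripts overlap those of ATG9B on the other strand, which had a log2 fold change of -1.94. BRAF had 473, 546 and 621 against 282, 176 and 180 (-1.39, SE 0.28). AGAP3, a GTPase-activating protein for Arf, had 2637, 2641 and 2611 against 1127, 1326 and 1363 (-1.05, SE 0.18), and CDK5, a kinase best known from neurons, was at 53.6% of the wild-type mean (-0.89, SE 0.23).

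RHEB and VIPR2 did not pass the threshold. RHEB, the GTPase that activates mTORC1, had 7878, 10735 and 8288 normalized counts in the wild type and 6226, 5092 and 5448 in the knockout (log2 fold change -0.67, SE 0.20), with no overlap. VIPR2, a receptor for vasoactive intestinal peptide and the last member toward the chromosome end, had 140, 113 and 158 against 73.7, 12.3 and 45.3 (-1.94, SE 0.64). Its knockout libraries differed among themselves several-fold.

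The 12 zinc finger and KRAB genes, of which KRBA1 is named for a KRAB domain and not for zinc fingers, all had negative log2 fold changes, with a median of -1.23. Of these 12, 6 were called lower (6.79% of all tested genes). In 10 the knockout lay below the wild type without overlap (17.2% of all tested genes). ZNF786 had 304, 404 and 339 normalized counts in the wild type and 35.6, 139 and 87.1 in the knockout (log2 fold change -2.18, SE 0.49). ZNF398 had 548, 315 and 674 against 59.7, 167 and 208 (-1.93, SE 0.52), and ZNF467 had 556, 509 and 517 against 197, 104 and 162 (-1.82, SE 0.30). ZNF783 (-1.72, SE 0.34) and ZNF746 (-1.64, SE 0.31) were also called, and the first overlaps AC004890.2 on the same strand, which had a log2 fold change of -2.27, so reads could be split between them. REPIN1, named for binding at replication origins, had 6019, 3811 and 6702 in the wild type and 1673, 2605 and 2687 in the knockout (-1.24, SE 0.29).

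The 6 genes of this group that were not called lay at 40.9% to 63.2% of the wild-type mean. They were ZNF425, ZNF282, ZNF212, ZNF777, KRBA1 and ZNF775. ZNF775 had 689, 812 and 813 normalized counts against 515, 479 and 469, the smallest log2 fold change of the group (-0.66, SE 0.20). ZNF282 and ZNF777 were the 2 whose groups overlapped. Zinc finger genes of a cluster are similar in sequence, so reads shared between them could have been assigned to either.

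The 5 chromatin, chromosome and DNA repair genes all had negative log2 fold changes, and 2 were called lower (6.79% of all tested genes). SMARCD3 had 10718, 10087 and 10801 normalized counts in the wild type and 5203, 5332 and 5776 in the knockout. The means were 10536 ± 391 and 5437 ± 301 (SD, n = 3), and the log2 fold change was -0.96 (SE 0.17). KMT2C, a histone H3 lysine methyltransferase, had 444, 352 and 305 against 196, 176 and 103 (-1.24, SE 0.33). PAXIP1, a partner of that enzyme family, was at 41.9% (-1.27, SE 0.39) and XRCC2, a gene of homologous recombination, at 44.1% (-1.26, SE 0.38), both without overlap and not called. NCAPG2 had 1095, 382 and 1302 in the wild type and 111, 422 and 354 in the knockout (-1.68, SE 0.62). Its wild-type replicate 2 lay under 1 knockout library and it was not called.

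The 6 mitochondrial members had a median of 50.6% of the wild type, and 4 were called lower (6.79% of all tested genes). AGK, the acylglycerol kinase of the inner membrane import machinery, had 810, 615 and 964 normalized counts against 198, 91.4 and 196 (log2 fold change -2.35, SE 0.37). ABCB8, a transporter of the inner membrane, had 986, 837 and 1425 against 281, 588 and 422 (-1.36, SE 0.33). FASTK, which takes part in mitochondrial RNA processing, had 5977, 6305 and 5566 against 2856, 2960 and 3061 (-1.01, SE 0.17). GSTK1, a glutathione transferase of mitochondria and peroxisomes, had 9113, 11941 and 8370 against 6024, 4097 and 5043 (-0.96, SE 0.23). In 5 of the 6, these 4 and ADCK2, the knockout lay below the wild type without overlap (17.2% of all tested genes). SSBP1 had 6873, 12916 and 6778 against 7561, 3219 and 4309, which overlapped, and ADCK2 was at 52.2% of the wild-type mean, and neither was called.

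Genes of ubiquitin and protein turnover had the weakest median of the groups, -0.87, and 1 of 8 was called lower (6.79% of all tested genes). That was NUB1, which targets ubiquitin-like modifiers for degradation, with 1495, 1540 and 1502 normalized counts against 524, 857 and 827 (log2 fold change -1.07, SE 0.24). CUL1, the scaffold of SCF ubiquitin ligases, had 6693, 3225 and 6593 against 1265, 2645 and 2775 (-1.31, SE 0.40). MKRN1, a RING-type ubiquitin ligase, had 6658, 5157 and 7800 against 2470, 3933 and 3931 (-0.94, SE 0.26). Both were without overlap and not called. DNAJB6, a co-chaperone that acts at the Z-disc of muscle, had 9313, 6534 and 7962 against 4289, 6415 and 7128, which overlapped (-0.43, SE 0.25). RNF32 was at 45.4% and TMUB1 at 58.1%, without overlap, and CASP2, an apoptotic protease, and UBE3C, a HECT ligase, at 65.2% and 72.5%, with overlap.

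The last 7 members belong to actin, glycosylation, and RNA or ribosome functions, and 3 were called lower (6.79% of all tested genes). GALNT11, which starts mucin-type O-glycans, had 2013, 1500 and 2125 normalized counts against 475, 895 and 696 (log2 fold change -1.48, SE 0.28). NOM1, a nucleolar protein, had 335, 319 and 309 against 167, 121 and 95.1 (-1.36, SE 0.30), and ACTR3B, a variant subunit of the Arp2/3 actin complex, had 1088, 848 and 1157 against 301, 470 and 641 (-1.18, SE 0.31). ZYX, the focal adhesion protein zyxin, had 2726, 2516 and 3474 against 1408, 1992 and 1779 (-0.75, SE 0.22). It did not overlap and was not called. CHPF2, a chondroitin-synthesizing enzyme, ABCF2, an ATP-binding cassette protein without membrane spans, and RBM33, an RNA-binding protein, overlapped between the groups. They were at 45.3%, 61.5% and 81.2% of the wild-type mean, RBM33 being the tested member nearest to the wild type after RARRES2.

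Change was set beside level and length across the members. Across the 55 genes Spearman's rho of the log2 fold change with the mean normalized count was 0.34, against 0.15 over all tested genes, and with the median transcript length -0.30, against -0.03. These are descriptions over genes that share the 6 libraries. Some members overlap another gene with a mean of at least 10, so reads could be shared: ADCK2 and BRAF with NDUFB2, ZNF775 with AC073111.4, CDK5 with SLC4A2, SMARCD3 with CHPF2, NUB1 with WDR86, RNF32 with LMBR1, and ZYX with EPHA1.

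The next comparison set the members beside the other genes of the same stretch. Another 40 tested genes start at 140 Mb or beyond. Their median log2 fold change was -0.75, and 29 of the 40 were negative. With limma 8 were called lower (6.79% of all tested genes) and 0 higher (5.97%). At an unadjusted p under 0.05 in limma, 16 were lower and 2 higher. Such a p was found for 4275 of all 15536 tested genes, in either direction. By adjusted p, edgeR called 7 lower and 0 higher, and DESeq2 called 10 lower and 1 higher. Among the 26 with a mean of at least 50 normalized counts, 22 were negative. The median of these others moved with the filter, to -0.30 with no filter and -1.06 with a mean of at least 50.

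The largest changes among the called others were those of KEL, EPHB6, AC004890.2, ZNF767P and TCAF1. KEL, the Kell blood group protease, had 653, 732 and 653 normalized counts in the wild type and 49.6, 50.2 and 0 in the knockout (log2 fold change -5.63, SE 1.39). It was at 4.89% of the wild-type mean, and the 0 in knockout replicate 3 enlarged its log2 fold change. EPHB6, an ephrin receptor without kinase activity, had 84.6, 91.4 and 137 against 2.54, 6.69 and 18.7 (-3.66, SE 0.69). TCAF1, a TRP channel associated factor, had 3435, 2804 and 3789 against 1106, 1276 and 1149 (-1.50, SE 0.19). In these 3, and in AC004890.2 and ZNF767P, the knockout lay below the wild type without overlap (17.2% of all tested genes). AC004890.2 had 202, 120 and 189 against 21.6, 35.7 and 48.9, and ZNF767P, a zinc finger pseudogene, had 568, 404 and 886 against 99.1, 185 and 210. Of the remaining called genes, named after their values were seen, KCNH2, the hERG potassium channel, was at 39.8%, EZH2, the methyltransferase of Polycomb complex 2, at 40.9% and WDR86 at 39.8%.

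**Figure D4:**
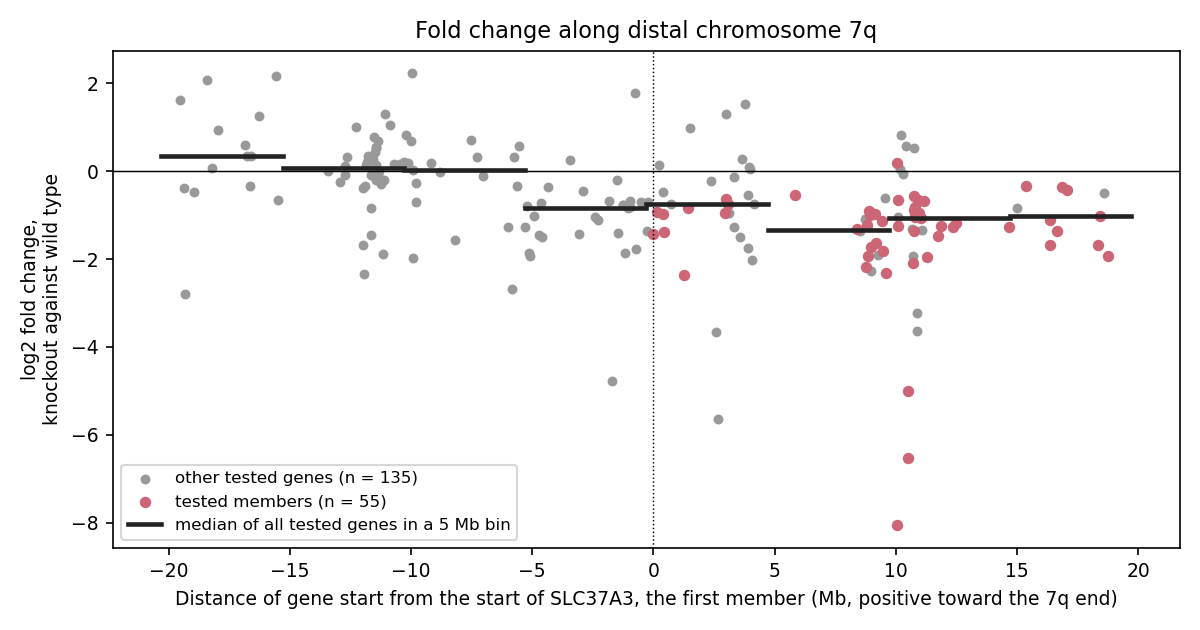
Log2 fold change of each tested gene against its distance in Mb from the start of SLC37A3, the first member, with positive distances toward the end of 7q. The 55 tested members are coloured, other tested genes are grey, and bars mark medians of 5 Mb bins, members included. The bar medians are 0.34, 0.06 and 0.03 for the first 3 bins and -0.83, -0.75, -1.33, -1.07 and -1.01 for the rest.

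Genes on both sides of the 140 Mb boundary had lower means in the knockout. Just inside it lay 2 genes that are no members. PARP12 had 221, 28.2 and 126 normalized counts against 57.2, 40.1 and 18.7, and KDM7A had 202, 89.9 and 203 against 48.3, 114 and 155, both with overlapping groups. The first members inside were SLC37A3 and MKRN1, at 37.2% and 52.7%. Just outside lay TBXAS1, thromboxane synthase, with 31.7, 38.8 and 28.1 normalized counts against 35.6, 15.6 and 13.3, and HIPK2, a kinase of the stress response, with 1822, 2020 and 1488 against 845, 513 and 314. HIPK2 fell by 1.78 on the log2 scale (SE 0.36), while TBXAS1 was not called.

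Lower values were also found before 140 Mb, where no gene is a member. From 135 to 140 Mb, 24 of 26 tested genes were negative, with a median log2 fold change of -0.83 and 8 called lower (6.79% of all tested genes). From 130 to 135 Mb it was 10 of 21, with a median of 0.03, 4 called lower and 1 higher. Those 4, named after their values were seen, were AKR1B1, the aldose reductase, at 15.6% of the wild-type mean, CPA1 at 29.1%, PLXNA4 at 33.5% and SLC35B4 at 41.6%. The bins from 140 Mb on had medians of -0.75 (31 genes), -1.33 (18 genes), -1.07 (35 genes) and -1.01 (11 genes). These bins hold 9, 13, 24 and 9 members, whose lower values chose them, so they cannot be set against the bins before 140 Mb. Among the genes that are no members, 15 of 22, 5 of 5, 7 of 11 and 2 of 2 were negative, with medians of -0.62, -1.35, -1.04 and -0.68. Over the whole flank of 95 tested genes (120 to 140 Mb), 14 were called lower (6.79% of all tested genes) and 4 higher (5.97%). The log2 fold change of the flank had its median at -0.19. The median was -0.32 with knockout replicate 1 left out, -0.31 with wild-type replicate 2 left out and -0.09 with knockout replicate 3 left out.

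To see how related genes elsewhere in the genome behaved, members were set beside some same-family genes on other chromosomes. These were picked by family membership, with earlier results of these data known. The list does not cover whole families, and no zinc finger member has a relative in it. Pairs with both genes tested covered 28 members. Of 41 relatives 39 were tested. Their median log2 fold change was 0.15, or -0.13 with equal totals and -0.07 without wild-type replicate 2. With limma 1 was called higher and 0 lower, where 5.97% and 6.79% of all tested genes were. At an unadjusted p under 0.05 it was 7 higher and 4 lower. Over all 15536 tested genes 4275 had such a p in limma, in either direction. edgeR called 1 higher and 0 lower, and DESeq2 called 2 higher and 3 lower. Of 36 pairs in which both genes were tested, the member had the lower log2 fold change in 33, a comparison in which the member's side was fixed by how members were chosen.

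**Figure D5:**
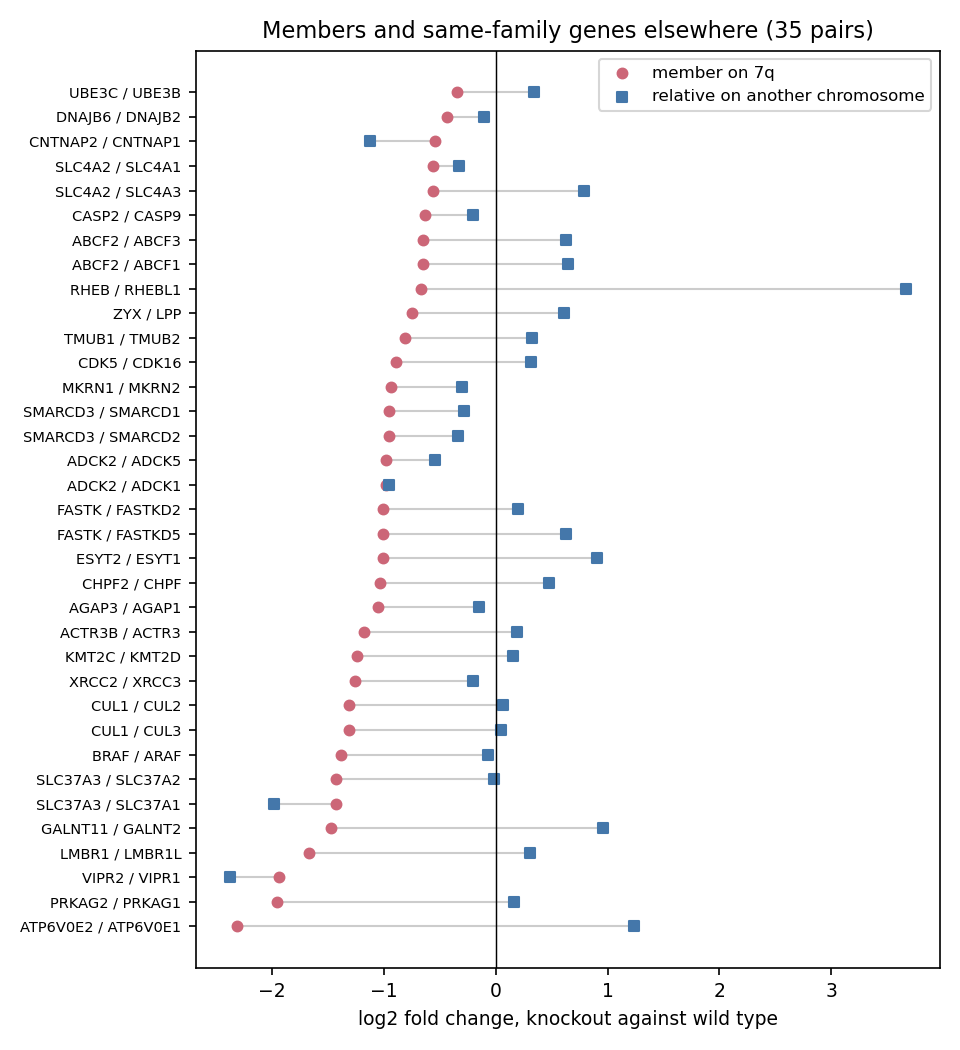
Log2 fold change (horizontal) of members on 7q (circles) and of their relatives on other chromosomes (squares), 1 line for each of 35 of the pairs in which both were tested, ordered by the member's value. The squares lie to the right of the circles in 32 lines and to the left for CNTNAP1, SLC37A1 and VIPR1.

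The relative that was called was ATP6V0E1, the widely expressed version of the vacuolar ATPase subunit. It had 4797, 7889 and 4780 normalized counts in the wild type and 19648, 10119 and 11919 in the knockout, and rose by 1.24 on the log2 scale (SE 0.31), while ATP6V0E2 fell. The limma adjusted p of ATP6V0E1 was 0.0404, and the call was lost with upper quartile scaling (0.0612), with eBayes without trend (0.079) and with the replicate number as a block (0.129). It was also lost with wild-type replicate 1 (0.16), wild-type replicate 3 (0.141), knockout replicate 1 (0.055) or knockout replicate 3 (0.104) left out, and the fold change stayed positive in each. PRKAG1 was at 113% of the wild-type mean beside 26.3% for PRKAG2. ARAF was at 94.9% beside 38.9% for BRAF, CUL2 and CUL3 at 107% and 103% beside 40.5% for CUL1, and KMT2D at 118% beside 43.1% for KMT2C. SMARCD1 and SMARCD2 were at 83.1% and 82.3% beside 51.6% for SMARCD3. ADCK1 and ADCK5 were at 54.5% and 68.4% beside 52.2% for ADCK2, both lower without overlap and not called. The relatives with a lower log2 fold change than their member were CNTNAP1 (45.4%, beside 69.6% for CNTNAP2), SLC37A1 (27.7%, beside 37.2% for SLC37A3) and VIPR1 (19.4%, beside 31.9% for VIPR2). None of these was called by limma.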

How the data were processed

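RNA was measured in 6 libraries, 3 wild-type and 3 STK25 knockout, by column RNA isolation, Clontech Ultra Low v4 cDNA synthesis and NexteraXT, per the labels' protocols. The deposited values are a signal, counts per gene symbol divided by 1 factor per library. The submitters' processing notes name kallisto 0.44.0, DESeq2 1.28.1 and GRCh38 without giving their roles. 100% of values were whole multiples (tolerance 0.001 reads) of 1 step per library, which gave back the counts used by edgeR and DESeq2. The libraries held 22443904 to 53224112 reads, and a floor of 3 reads allows for counting error alone, since PCR copies are not marked. Aligner settings, annotation and use of strand are not given in the sources used here.

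limma 3.58.1 (R 4.3.3; lmFit, eBayes with trend) was run on log2(value + 1) for the 15536 genes with a mean of at least 10, with all 6 libraries, no covariate and Benjamini-Hochberg adjustment at 0.05. It measures the spread between replicates of 1 line per genotype. Symbols of 97.7% of tested genes were found in GENCODE 29 (GRCh38), which gave positions and transcript lengths, and start windows from RefSeq. Members and lists were chosen with earlier results of these data known. Genes given in each library were those with the largest change or highest level in each role group, positive members, genes at the 140 Mb boundary, called relatives and the 5 largest called others, plus some members added after their values were seen. Alternatives were pseudocounts of 0.1 and 10, no filter or a mean of 50, upper quartile, equal totals or quantile scaling, a replicate block, eBayes without trend, each library left out, edgeR 4.0.16, DESeq2 1.42.0 and, added after the data were seen, both libraries that stood apart left out. The fits were also run on simulated counts with a single dispersion for all genes and independent libraries. That setting lacks the joint departures of the libraries that stood apart, so nothing about these data is read from it. The pair left out of the plot of relatives is counted but not reported here.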

Additional observations from a re-analysis of the deposited data

How the results depend on the processing

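The number of genes called over the whole table was 1982 and moved to 3210 with DESeq2, 4706 without both libraries that stood apart, 798 with the replicate number as a block, and 792 to 2192 with 1 library left out. The members called lower numbered 27, or 48 without both libraries that stood apart (of 56 tested), 9 with the replicate block, and 6 to 28 with 1 library left out. Same-numbered libraries did not deviate together (correlations of -0.23, -0.40 and 0.17), so the block is not taken as a pairing. The members' median log2 fold change of -1.14 was -1.42 with equal totals, which moved the median of all genes to -0.28. It lay between -1.32 and -1.05 under the other alternatives.

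The median of the other genes from 140 Mb was -0.30 with no filter, -1.06 with a mean of at least 50, -1.08 with equal totals and -0.95 to -0.69 with 1 library left out. For 120 to 140 Mb it was -0.47 with equal totals, -0.074 with quantile scaling, -0.30 without both libraries that stood apart and -0.32 to -0.091 with 1 library left out. For the relatives it was -0.13 with equal totals and -0.067 to 0.22 with 1 library left out. The log2 fold change of RARRES2 was -0.088 with equal totals and -0.12 to 0.59 with 1 library left out, negative when wild-type replicate 3 (-0.12) or knockout replicate 1 (-0.11) was the one left out. Over 38 named genes and 683 comparisons with an alternative, 569 kept direction and call, 77 lost the call, 34 gained it and 3 changed sign. The causes were not tested. A single knockout line and 3 libraries per group limit the precision.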
